A study of Mus musculus with 36 samples.

Results

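The replication timing (RT) of 6 genes that govern the step from an activated B cell to a plasma cell was described, namely *Irf4*, *Prdm1*, *Xbp1*, *Sdc1*, *Bach2* and *Irf8*. The genes were chosen by name, and all 6 were found among the 22350 protein-coding genes on 19 autosomes and X in the annotation of the mm9 genome. The start of a gene on its strand marked its place, and its state was that of the RT domain covering that base. All 6 genes started in early (E) domains in both B cell maps, and 5 of them started in an E domain in a map named for fibroblasts as well. *Prdm1* started in a middle (M) domain there. *Bach2* was the only one of the 6 whose body was divided, since its start was E and its coding bases were M in CH12 cells.

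Repli-seq reads RT from the DNA that cells make during a pulse of BrdU, which is sequenced separately for cells sorted early in S phase and cells sorted late. The series held 36 libraries in 7 groups, of which 8 libraries from 2 groups lay behind the B cell maps. The first map came from CH12 cells infected with a lentivirus carrying an shRNA against LacZ, as the infection control, and selected with puromycin (4 libraries). CH12 is a mouse B cell lymphoma line, so that map describes 1 transformed line, and its labels name IL4, CD40 and TGF beta as stimuli. The second came from WT primary activated splenic B cells (4 libraries), whose labels repeat the culture text of the line, so that their stimulus cannot be read from them. No group was made of sorted plasma cells. Another map, outside both groups, is named for WT mouse embryonic fibroblasts (MEFs). The labels tie it to no sample of the series, and the study's list of data sources takes its MEF reads from an earlier deposit.

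Each map divided the genome into E, M and late (L) domains with edges on a grid of 20 kb bins. The RT values had been smoothed over a span of 300 kb before the states were called, so edges and stretches finer than that span are blurred. Replicates had been merged, which left 1 map per condition. No value below has a replicate error, and no difference between maps was tested. Read depth is unknown from the maps, and the Wilson 95% intervals of shares cover counting over genes only. The maps hold no expression, so cell identity could not be checked against marker transcripts. Density of protein-coding gene starts fell from E to M to L in every map, but E and L were named by this density. The order of E over L was thus set by the naming. The densities were 18.9, 8.41 and 3.76 starts per Mb in CH12 cells. They were 17.6, 7.77 and 2.88 in primary B cells and 16.1, 6.48 and 3.29 in the map named for MEFs.

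Plasma cells arise when an activated B cell gives up its B cell program and turns to the secretion of antibody. IRF4 and BLIMP1, the product of *Prdm1*, are transcription factors that drive this step, and XBP1 is the transcription factor of the unfolded protein response that enlarges the secretory apparatus. Syndecan-1, the product of *Sdc1*, is the surface proteoglycan also called CD138 by which plasma cells are recognised. BACH2, a repressor of *Prdm1*, and IRF8, a factor of germinal centre and naive B cells, hold the step back. Early replication is, in general, a property of gene-rich and active chromatin.

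The bases just before the annotated RefSeq start of each gene are shown because the 6 differed in base composition. Distances further on are counted from the gene start of the mm9 annotation, which lies 69.8 kb from the RefSeq start at *Prdm1* and 179 kb from it at *Bach2*. The windows come from the RefSeq promoter table of build GRCm38.p6 and were placed on mm9 by exact match, for 6 of 6 genes. They lie at chr13:30840945-30841094 (plus strand), chr10:44178555-44178704 (minus), chr11:5420494-5420643 (plus), chr12:8777988-8778128 (plus), chr4:32504260-32504409 (plus) and chr8:123260108-123260257 (plus), and none holds an annotated exon base. Each is 150 bases long except that of *Sdc1*, which has 141. Annotated exon bases between the window and the RefSeq start were left out, 7 at *Irf4* and 73 at *Sdc1*. They are written 5′ to 3′ on the strand of the gene, with every CG dinucleotide in capitals.
Irf4: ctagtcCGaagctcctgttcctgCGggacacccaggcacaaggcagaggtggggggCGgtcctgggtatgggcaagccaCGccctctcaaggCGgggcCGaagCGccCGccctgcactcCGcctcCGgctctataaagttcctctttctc
Prdm1: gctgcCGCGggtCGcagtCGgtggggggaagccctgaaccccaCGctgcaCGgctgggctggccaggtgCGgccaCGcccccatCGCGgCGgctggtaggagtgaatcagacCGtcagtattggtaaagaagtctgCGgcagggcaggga
Xbp1: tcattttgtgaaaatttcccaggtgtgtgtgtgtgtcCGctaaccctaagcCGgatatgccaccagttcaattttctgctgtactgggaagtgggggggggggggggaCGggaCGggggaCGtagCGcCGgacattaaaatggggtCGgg
Sdc1: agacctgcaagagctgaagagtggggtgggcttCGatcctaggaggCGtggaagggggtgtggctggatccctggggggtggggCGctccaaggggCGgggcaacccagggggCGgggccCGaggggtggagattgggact
Bach2: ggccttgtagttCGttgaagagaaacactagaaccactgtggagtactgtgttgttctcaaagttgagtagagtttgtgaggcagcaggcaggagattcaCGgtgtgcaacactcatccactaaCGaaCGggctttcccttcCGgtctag
Irf8: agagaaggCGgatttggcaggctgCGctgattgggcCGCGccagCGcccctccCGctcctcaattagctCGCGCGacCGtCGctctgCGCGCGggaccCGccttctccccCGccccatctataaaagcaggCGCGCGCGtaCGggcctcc
The window of *Irf8* held 21 CG dinucleotides and that of *Bach2* held 5, with 6 to 13 in the other 4. Over the full 250 bases before the RefSeq start, the ratio of observed to expected CG was 1.03 for *Irf8*, the 95.6th percentile of 27018 promoters, and 0.71 for *Prdm1*, the 73.8th. The ratios of the other 4 genes lay between 0.425 and 0.523, at the 53.9th to 60.6th percentile, with a median of 0.378 over all promoters. The letters TATAAA, searched on both strands, stood in the 250 bases of *Irf4* and *Irf8*, and in 13.0% of all promoters. A match of letters describes the window and is not evidence of a site in use.

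The first question was whether these genes replicate in the same state in both kinds of B cell. In CH12 cells all 6 started in E, where 50.6% of protein-coding genes did. In primary B cells all 6 again started in E, where 58.0% of genes did. All 6 were therefore E in both B cell maps, as were 48.4% of all genes, and all 6 kept 1 state between these maps, as did 78.5%. Earlier and later here and below compare state names between 2 maps, whose RT thresholds can differ. E covered 599.64 Mb in CH12 cells and 737.68 Mb in primary B cells. From RT values, the paper described fewer early and more mid-replicating domains in WT primary B cells than in CH12 cells. All 6 were E in CH12 cells, and E is the earliest state, so none could start earlier in primary B cells. The share of all genes that did, 18.8%, is thus no measure for the 6. None started later, against 2.75% of all genes. That share and the 78.5% count genes of every state, and genes L in CH12 cells could not be later. The nearer measure for the 6 is that of the 11312 genes E in CH12 cells, 10807 were also E in primary B cells. In the map named for MEFs, 5 of the 6 started in E, and so did 58.6% of all genes. These 5 were E in all 3 maps, a pattern of 43.9% of genes. *Prdm1* was E in both B cell maps and M in the map named for MEFs, which 4.47% of all genes were. The 6 genes lie on 6 chromosomes and share no domain, but they were chosen by name for their function, so these counts describe them and test nothing.

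**Figure D1:**
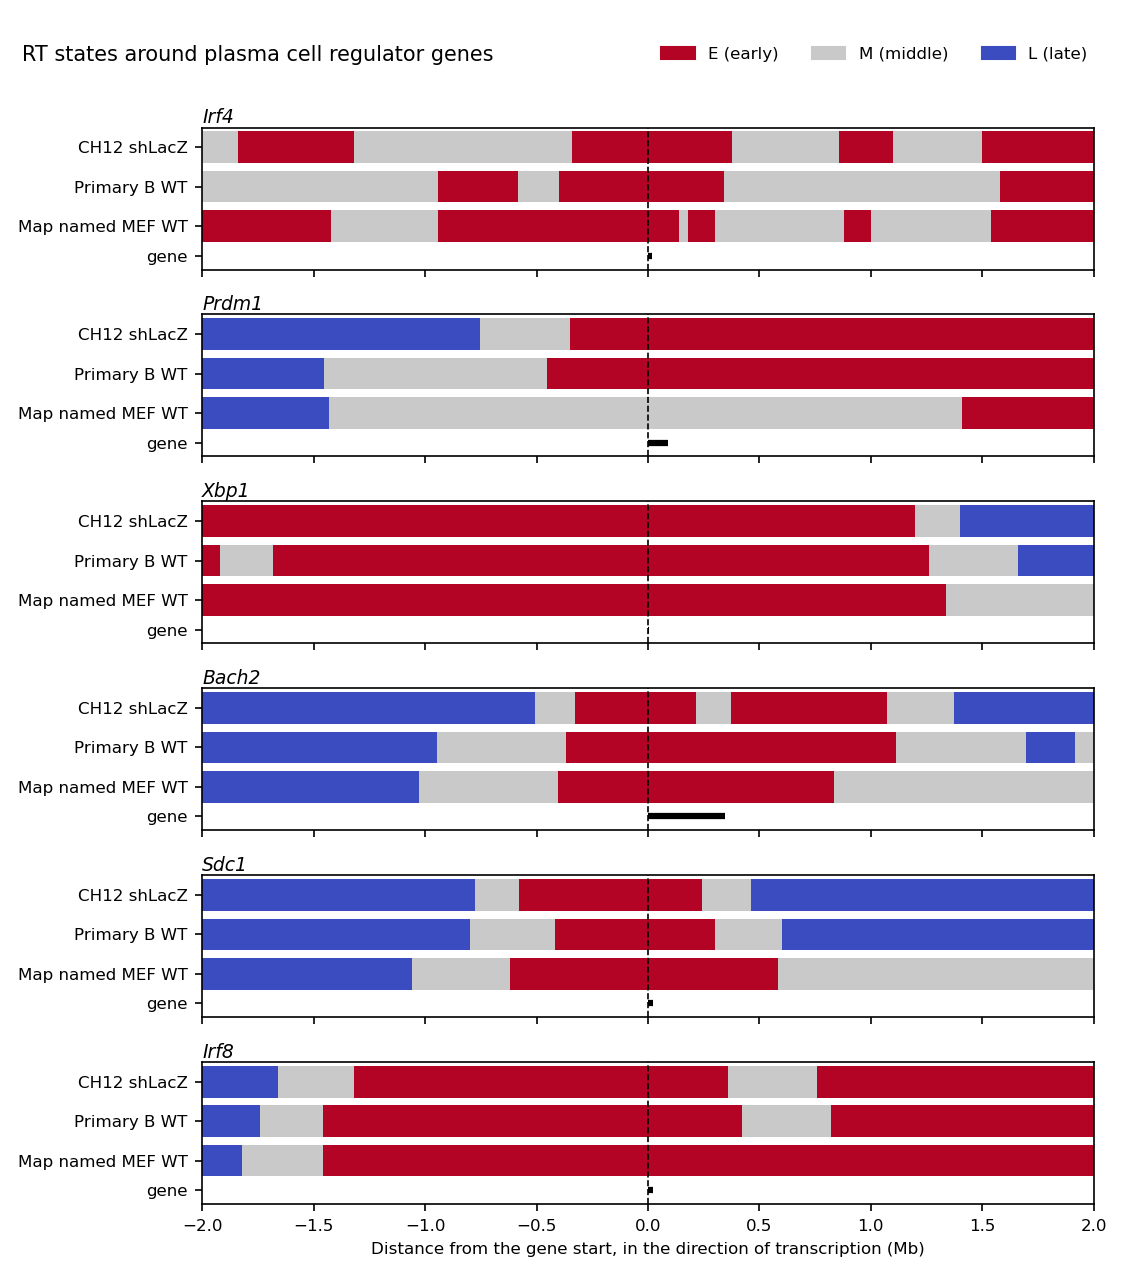
RT state along the 4 Mb around each gene in the 3 maps, with distance from the gene start in Mb in the direction of transcription on the horizontal axis and the gene body as a black bar (that of Xbp1, 5.24 kb, is too short to see). The dashed line at the gene start crosses E in every row except that of Prdm1 in the map named for MEFs.

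The genes differed widely in the size of the domain around them. In CH12 cells the covering domains ran from 540 kb at *Bach2* to 3580 kb at *Prdm1*, with a median of 1250 kb over the 6 genes. The median over all genes that start in E was 2200 kb, with quartiles of 1120 and 3400 kb. In primary B cells the range was 720 to 3720 kb with a median of 1680 kb, against a median of 2100 kb over E genes. The order was much the same in both maps. *Prdm1* and *Xbp1* lay in long domains, *Irf8* in one of middle length, and *Irf4* and *Sdc1* in short ones, while *Bach2* moved from the shortest domain in CH12 cells to the fourth longest in primary B cells. The nearest domain edge was 214 to 1200 kb from the start in CH12 cells (median 346.5 kb) and 302 to 1260 kb in primary B cells (median 393 kb). The medians over E genes were 440 and 437 kb. The nearest L domain began 462 to 2140 kb away in CH12 cells (median 1076 kb) and 602 to 2620 kb away in primary B cells (median 1555 kb), where the medians over E genes were 1320 and 1650 kb. All 12 starts in the B cell maps thus stood more than 150 kb inside their domains.

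**Figure D2:**
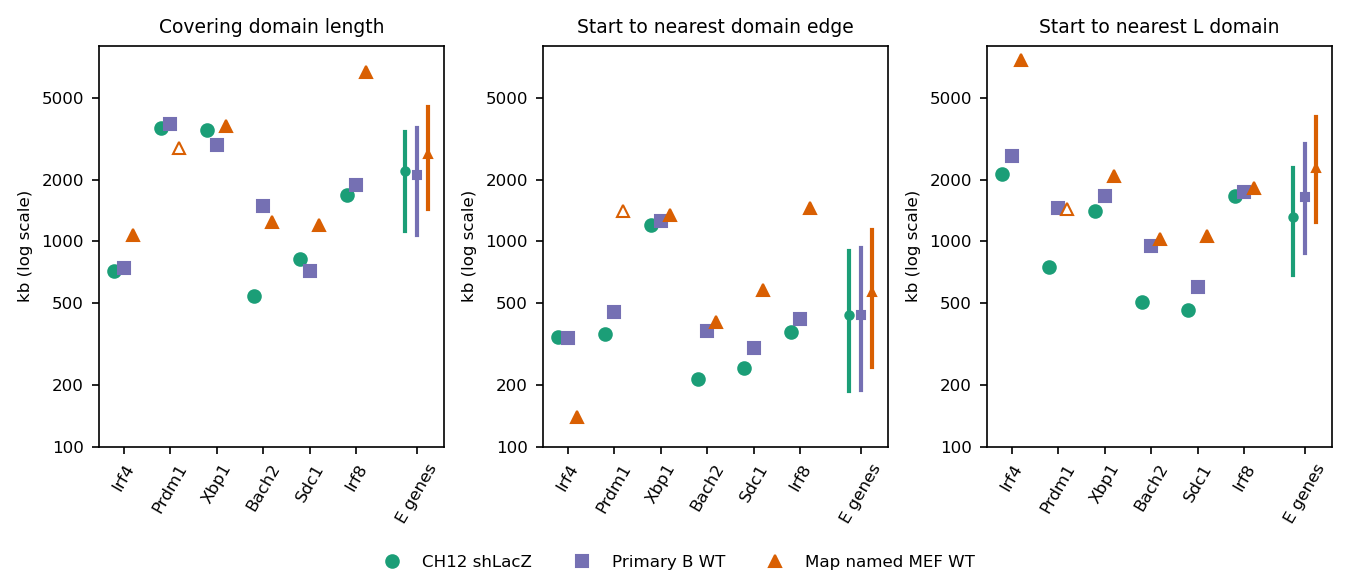
Length of the covering domain, distance from the gene start to the nearest domain edge and distance to the nearest L domain, each in kb on a log axis, for the 6 genes in the 3 maps, with the median and quartiles of all protein-coding genes that start in E at the right. Prdm1 in the map named for MEFs is drawn as an open symbol because it was M, and Bach2 and Sdc1 had the shortest distances to an L domain in both B cell maps, from 462 kb to 946 kb.

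*Irf4* (chr13:30841095-30858796, plus strand, 17.7 kb) lay in a short E domain in both B cell maps. The domain measured 720 kb in CH12 cells (chr13:30500001-31220000) and 740 kb in primary B cells (chr13:30440001-31180000), the 13.6th and 14.4th percentile of domain length among E genes. The gene start stood near the middle of both, with edges 341 kb before and 379 kb after it in CH12 cells and 401 and 339 kb in primary B cells. M stretches flanked it on both sides, of 980 and 480 kb in CH12 cells and of 180 and 1240 kb in primary B cells, and E followed beyond each of them. L was far away, 2140 kb in CH12 cells and 2620 kb in primary B cells. Both domains held the same 5 other genes, *Uqcrfs1*, *Dusp22*, *Hus1b*, *Exoc2* and *Gm5447*, with *Dusp22* the nearest at 89.2 kb before *Irf4*. That made 8.33 and 8.11 protein-coding starts per Mb, about the density of M rather than of E. In the map named for MEFs the domain reached 1080 kb and was displaced. Its edge after *Irf4* was 139 kb from the start, and it extended 941 kb before it to take in *Cdkal1*, *E2f3*, *Mboat1* and *Agtr1a*. The M stretch at the near edge was 40 kb long in that map, which is 2 bins, and both bins were E in the B cell maps. Joining across it gave an E domain of 1240 kb.

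*Prdm1* (chr10:44156983-44248307, minus strand, 91.3 kb) lay in the longest of the 6 domains in both B cell maps. It measured 3580 kb in CH12 cells (chr10:41020001-44600000) and 3720 kb in primary B cells (chr10:40980001-44700000), and each held 33 protein-coding starts. *Prdm1* stood at one end of it. The edge before the gene was 352 kb from the start in CH12 cells and 452 kb in primary B cells, while the other edge was 3230 and 3270 kb away. The genes next to it inside both domains were *Atg5*, which starts 260 kb from it, *Aim1* at 524 kb and *Rtn4ip1* at 627 kb, all on the side of the long arm of the domain. No protein-coding gene started between *Prdm1* and the near edge in either map. Beyond that edge lay M, for 400 kb in CH12 cells and 1000 kb in primary B cells, and then an L domain of 2860 and 4480 kb. The start of *Prdm1* was 752 kb from L in CH12 cells and 1450 kb in primary B cells. The annotated gene start is that of a transcript without a coding sequence. Both protein-coding transcripts start near base 44178554, 69.8 kb further in, where the states were also E, E and M.

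In the map named for MEFs, *Prdm1* lay in an M domain of 2840 kb (chr10:42840001-45680000), in the middle of it, with edges 1430 kb before and 1410 kb after its start. That is the 86.2th percentile of domain length and the 97.1th percentile of edge distance among genes that start in M. All bins within 500 kb of the start were M there, while 84.3% of these bins were E in CH12 cells and 94.1% in primary B cells. The CH12 domain overlapped 1760 kb of that M domain, or 62.0% of it, and the primary B domain 1860 kb, or 65.5%, so part of the M domain was not E in the B cell maps either. Of the 21 protein-coding genes that start in that M domain, 15 were E in both B cell maps, 2 were M in both and 4 differed between them. The nearest L domain began 1430 kb before *Prdm1* in the map named for MEFs, 1450 kb before it in primary B cells and 752 kb before it in CH12 cells. Of the 10807 genes E in both B cell maps, 90.7% were E in the map named for MEFs (Wilson 95% interval 90.2 to 91.3%), 9.23% were M (8.7 to 9.8%) and 0.0463% were L. *Prdm1* belonged to the second class. Cell type and origin of the data cannot be told apart in this comparison, since that map comes from another deposit.

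*Xbp1* (chr11:5420662-5425896, plus strand, 5.24 kb) was the shortest gene, and in both B cell maps the one deepest inside E. In the map named for MEFs *Irf8* was deeper, at 1460 kb. Its domain measured 3480 kb in CH12 cells (chr11:3140001-6620000), 2940 kb in primary B cells (chr11:3740001-6680000) and 3640 kb in the map named for MEFs (chr11:3120001-6760000). The nearest edge was 1200, 1260 and 1340 kb from the start, the 85.1th, 84.4th and 80.2th percentile among E genes. All bins within 500 kb of the start were E in the 3 maps. The domain was also the most gene-rich of the 6, with 79, 69 and 79 protein-coding starts, or 22.7, 23.5 and 21.7 per Mb. Its GC content was 46.7% in the B cell maps, the 78.3th and 82.3th percentile among E domains. *Ccdc117* was the nearest gene start, at 21.5 kb after *Xbp1*, followed by *Ankrd36* at 49 kb and *Znrf3* at 75.8 kb before it. The far edge differed by 600 kb between the B cell maps, where primary B cells had an M stretch of 240 kb whose 12 bins were all E in the other maps. On the side of lower coordinates the M domain of CH12 cells runs to the chromosome end over 3000000 unknown bases, so its length of 3140 kb is not a measured length.

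*Sdc1* (chr12:8778129-8800521, plus strand, 22.4 kb) lay in a short E domain between L domains. The domain measured 820 kb in CH12 cells (chr12:8200001-9020000) and 720 kb in primary B cells (chr12:8360001-9080000), the 17.4th and 13.5th percentile among E genes. Thin M stretches bounded it, of 200 and 220 kb in CH12 cells and of 380 and 300 kb in primary B cells. L domains of 2780 and 1760 kb followed in CH12 cells, and of 2580 and 1540 kb in primary B cells. *Sdc1* was the member nearest to L, at 462 kb in CH12 cells and 602 kb in primary B cells, the 11.9th and 13.2th percentile among E genes. Its window was the only one of the 6 to reach L, with 3.92% of the bins within 500 kb in CH12 cells. *Pum2* started 97.2 kb before it and *Laptm4a* 150 kb after it, and with *Rhob*, *Slc7a15*, *Matn3* and *Wdr35* they shared its domain in all 3 maps. In the map named for MEFs the domain was longer, 1200 kb, and all bins within 500 kb were E. The M stretch beyond its higher edge measured 2140 kb in that map, against 220 and 300 kb in the B cell maps.

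*Irf8* (chr8:123260258-123280594, plus strand, 20.3 kb) was covered by E domains of 1680 kb in the CH12 map (chr8:121940001-123620000) and 1880 kb in the primary B map (chr8:121800001-123680000), near the middle of the distribution for E genes (40.3th and 45.9th percentile). The edge after the gene was the nearer one, at 360 kb and 420 kb. An M stretch of 400 kb followed it in both maps, and 17 of its 20 bins were the same in both. E resumed beyond the stretch, for 3580 kb in CH12 cells and 2700 kb in primary B cells. All 20 bins of the CH12 stretch were E in the map named for MEFs, so that *Irf8* there lay in 1 domain of 6680 kb with 112 protein-coding starts. *Foxf1a* started 348 kb after *Irf8*, inside E in each map. *Mthfsd* and *Foxc2* started 372 and 380 kb after it, in the M stretch in CH12 cells and in E in the other maps, within 60 kb of an edge that differed between the B cell maps by less than the smoothing span. The *Irf8* domain had the highest GC content of the 6, 51.9% in CH12 cells and 51.6% in primary B cells, the 99.7th and 99.6th percentile among E domains. The domain of *Irf4* had the lowest, 42.1% and 42.2%. The CG-rich window printed for *Irf8* thus lay in a GC-rich domain.

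*Bach2* (chr4:32325779-32673083, plus strand, 347 kb) was the longest gene and the only one whose body crossed a domain edge. In CH12 cells the covering E domain was 540 kb long (chr4:32000001-32540000), the 7.42th percentile among E genes, and it ended 214 kb into the gene. The first 214 kb of the body were E and the last 133 kb M, which are 11 and 7 bins. In primary B cells and in the map named for MEFs the whole body was E, in domains of 1480 kb (chr4:31960001-33440000) and 1240 kb (chr4:31920001-33160000). A body that crosses an edge in CH12 cells was found for 4.57% of protein-coding genes, and for 40.9% of the genes of 300 kb or more. The gene thus shared this property with many genes of its length.

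The coding bases of *Bach2* lay on the M side of this edge. Its coding span runs over chr4:32588600-32667268 and holds 2670 coding bases, all of them M in CH12 cells and all E in the other maps. Of the 11312 genes that started in E in CH12 cells, 0.327% had all their coding bases in 1 M domain. Among such genes of 300 kb or more the share was 7.25%, or 5 of 69. Of its annotated protein-coding transcripts, those that start at 32325779, 32325925 and 32504410 began in E in CH12 cells, and the one that starts at 32588522 began in M. The RefSeq start, whose upstream bases are printed above, is 32504410 and lay 35.6 kb inside the E domain. The M stretch measured 160 kb (chr4:32540001-32700000), and all of its 8 bins were E in the other maps. It also held the start of *Gja10*, 364 kb after that of *Bach2*. E resumed beyond it for 700 kb. The stretch is shorter than the smoothing span of 300 kb, and without RT values its depth is unknown. Which of the *Bach2* transcripts these cells used was not measured.

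**Figure D3:**
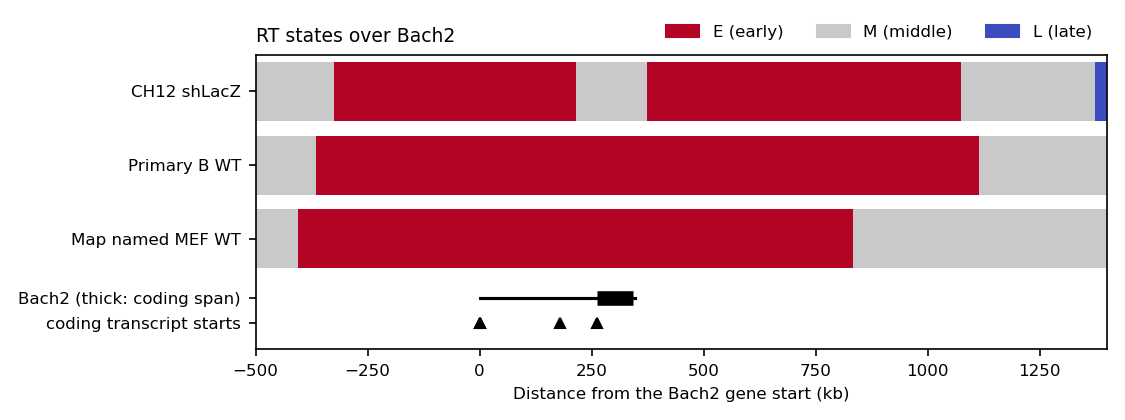
RT states over Bach2 and its surroundings in the 3 maps, with distance from the gene start in kb on the horizontal axis, the gene body as a line, its coding span as a thick bar and its protein-coding transcript starts as triangles. The coding span lies in the 160 kb M stretch that appears in CH12 cells and in neither of the other maps.

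On its other side *Bach2* faced late replicating DNA in each map. M stretches of 180 kb in CH12 cells, 580 kb in primary B cells and 620 kb in the map named for MEFs led to L domains of 6900, 8920 and 4360 kb. L began 506, 946 and 1030 kb before the gene start. No protein-coding gene started in these M stretches. *Map3k7*, 275 kb before *Bach2*, and *D130062J21Rik*, 4.93 kb after its start, were the other genes in the CH12 domain, and the density of 5.56 starts per Mb was the lowest among the 6. The longer domain in primary B cells held 16 starts, or 10.8 per Mb.

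The next comparison asked how closely the domain edges around the 6 genes matched between maps. Between the B cell maps, 8 of the 12 edges lay within 100 kb of each other and 10 of 12 within the smoothing span of 300 kb, with a median distance of 60 kb. Among all genes E in both maps, 60.3% of edges lay within 100 kb, with a median of 80 kb. In this share an edge counts once for each such gene in its domain, so gene-rich domains weigh more. Both edges of *Irf4* and of *Prdm1* were among the 8, with distances of 60 and 40 kb and of 40 and 100 kb. The larger distances were 900 kb at the higher edge of *Bach2*, 600 kb at the lower edge of *Xbp1*, 160 kb at the lower edge of *Sdc1* and 140 kb at the lower edge of *Irf8*. The overlap of the domains was 94.4% of the CH12 domain and 91.9% of the primary B domain at *Irf4*. At *Bach2* it was 100% and 36.5%. Against the map named for MEFs, 3 of the 10 edges of the 5 genes other than *Prdm1* lay within 100 kb of the CH12 edges. The median distance was 190 kb. Counted per gene in the same way, 37.9% of edges around all genes E in both maps did. Set against primary B cells, 3 of 10 did, with a median of 240 kb, where 45.4% of edges counted per gene did. All these counts are without joining. The higher edge of *Irf4* in the map named for MEFs, 240 kb from that of CH12 cells and 200 kb from that of primary B cells, was set by the M stretch of 40 kb. Joined across it, the E domain ended at 31140000, against 31220000 in CH12 cells and 31180000 in primary B cells, which is within 100 kb of both. These comparisons share maps and are not independent of each other. The largest distances were 4860 and 4800 kb, both at the higher edge of *Irf8*.

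A wider view came from the bins within 500 kb of each start. In CH12 cells E made up 66.7% of them at *Bach2*, 70.6% at *Irf4*, 74.5% at *Sdc1*, 84.3% at *Prdm1* and at *Irf8*, and 100% at *Xbp1*. In primary B cells the shares were 70.6% at *Sdc1*, 72.5% at *Irf4*, 86.3% at *Bach2*, 90.2% at *Irf8*, 94.1% at *Prdm1* and 100% at *Xbp1*. The median over the 6 genes was 79.4% and 88.2%. *Bach2*, whose body ends inside the M stretch of CH12 cells, had the largest distance between these maps. In the map named for MEFs the shares were 0.0% at *Prdm1*, 74.5% at *Irf4*, 90.2% at *Bach2* and 100% at the other 3, with a median of 95.1%.

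The other genes of the pathway and the relatives of the 6 genes were read from the same maps, 60 genes in 7 lists. Of these, 39 were E in CH12 cells, 45 in primary B cells and 40 in the map named for MEFs, and 50 of the 60 had 1 state in both B cell maps. The shares over all protein-coding genes were 50.6, 58.0, 58.6 and 78.5% in the same order. All 10 that differed are named here. Factors of B cell identity were E for 5 of 9 in CH12 cells and for 8 of 9 in primary B cells. The 3 that differed were earlier in primary B cells, namely *Bcl6*, the repressor that maintains germinal centre cells (L in CH12 cells, E in primary B cells), and *Ebf1* and *Foxo1*, factors of early B cell development (M and E). Over the 60 genes 9 were earlier in primary B cells and 1 was later, where 18.8 and 2.75% of all protein-coding genes were. These are differences of state name between maps whose RT thresholds can differ, and whether RT itself differed was not tested. The 6 regulators, E in CH12 cells, could not be earlier in primary B cells.

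Of 13 plasma cell drivers and products, 10 were E in CH12 cells, 11 in primary B cells and 6 in the map named for MEFs. The 2 that differed between the B cell maps were *Jchain*, the joining chain of polymeric antibody (M and E), and *Zbtb20*, a factor of plasma cell survival (L and M). *Zbtb20* has 2 entries in the annotation, and its longer one started 4.01 kb from a domain edge in CH12 cells. Of 12 genes of the unfolded protein response and secretion, 10 were E in each B cell map and 8 in the map named for MEFs. *Dnajb9*, a chaperone partner of the endoplasmic reticulum, was earlier in primary B cells (M and E), and *Creb3l2*, a transcription factor related to ATF6, was the only one of the 60 that was later (E and M).

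The pattern of *Prdm1*, E in both B cell maps and M in the map named for MEFs, was shared by 7 of the 60 genes, against 4.47% of all protein-coding genes. These were *Pax5*, the factor of B cell commitment, *Ikzf1*, *Slamf7*, *Cd38* and the chemokine receptor gene *Cxcr4* among plasma cell and lymphoid genes, and *Eif2ak3* and *Edem1* of the unfolded protein response. The list of plasma cell drivers and products held 4 of them. The M domains of these 7 genes in the map named for MEFs measured 380 to 3040 kb, and *Edem1* started 18.6 kb from an edge. The M domain of *Prdm1* was longer than those of 6 of the 7, with *Cd38* in the one that was longer.

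The families of the 6 genes differed from one another. The 6 other IRF genes of the list, *Irf1*, *Irf2*, *Irf3*, *Irf5*, *Irf7* and *Irf9*, were E in all 3 maps, as were *Irf4* and *Irf8*. So were 43.9% of all genes. Their domains in CH12 cells ran from 540 kb at *Irf9* to 3040 kb at *Irf3*. In the PRDM family *Prdm1* stood apart from most of its 12 listed relatives in the B cell maps. In the map named for MEFs 6 of the 12 were M, as *Prdm1* was, and 6 were E. Of these 12, 2 were E in both B cell maps (*Prdm10* and *Prdm12*), against 48.4% of all genes. In CH12 cells 9 of 12 were M, against 6088 of all 22350 genes. In primary B cells 8 of 12 were M, against 6496 of all genes. The 3 that differed were earlier in primary B cells, *Prdm6* (L and M) and *Prdm9* and *Prdm11* (M and E). Of 3 other syndecan genes, *Sdc3* and *Sdc4* were E in all 3 maps as *Sdc1* was, and *Sdc2* was L in both B cell maps and M in the map named for MEFs. *Bach1*, the closest relative of *Bach2*, was M in both B cell maps and E in the map named for MEFs, while *Nfe2l2* and the small MAF genes *Maff*, *Mafg* and *Mafk*, which encode partners of BACH proteins or a factor that competes with them, were E in all 3. With 3 to 13 genes in a list and 1 map per condition, no list was tested against another.

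**Figure D4:**
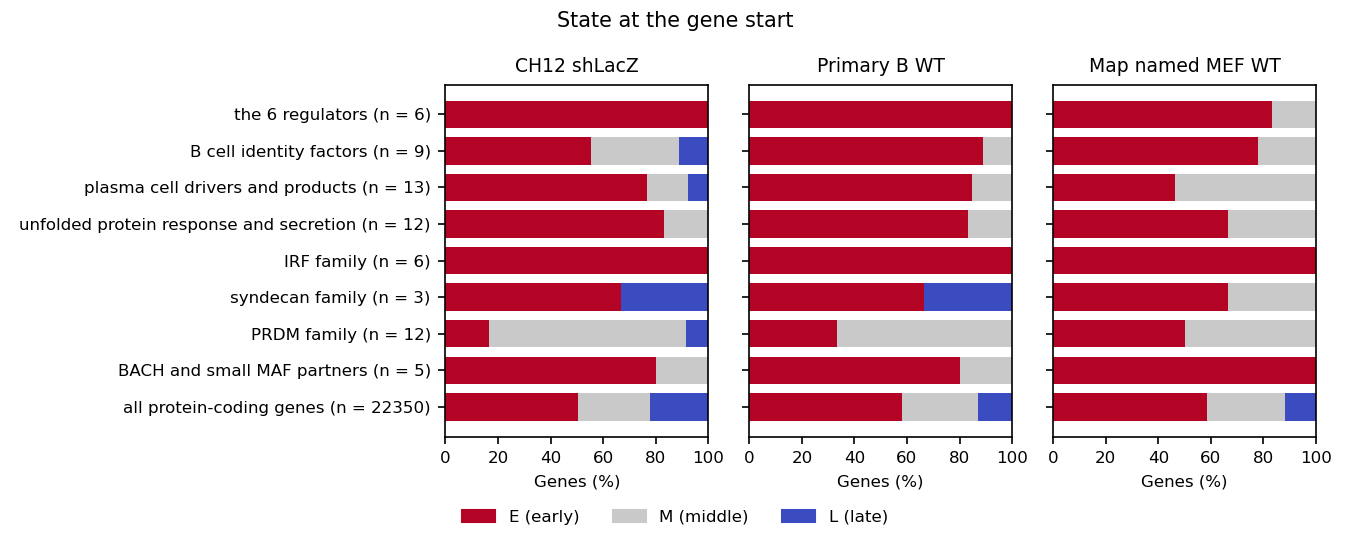
Percent of genes in each list that start in E, M or L domains in each of the 3 maps, with all 22350 protein-coding genes as the lowest bar and the number of genes after each name. The bars of the 6 regulators are wholly E in both B cell maps, and that of the PRDM family is mostly M in CH12 cells, where 9 of 12 genes were M.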

How the data were processed

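The authors trimmed Repli-seq reads with Trim Galore 0.6.5, aligned them to mm9 with BWA 0.7.17, filtered them with SAMtools 1.9, merged replicates and removed duplicates. They computed log2 ratios of early to late reads in 20 kb windows, smoothed them by loess over 300 kb, and called 3 states with a hidden Markov model. The deposited maps give each domain's start, end and a state number. That number is a class label, coded otherwise in the map named for MEFs, and carries no RT value. RT thresholds between states can therefore differ between maps. The state that separated the other pair everywhere was named M, and of that pair the one with more protein-coding gene starts per Mb was named E.

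Genes came from the GENCODE M1 annotation and were located by the first base on the gene's strand. Percentiles are among protein-coding genes whose start has the same state in that map. For neighbours, all genes of a domain with at most 10 were listed, otherwise the 3 nearest on each side. From the lists, genes that differed between the B cell maps or had the states of a member were named, and the relatives of the members were named by choice after their states were seen. Members and lists were chosen with earlier results of these data known. The other 5 groups were not analysed here, and some genes of the families listed are not reported here. Functions were tested on simulated data, where 6 of 6 checks passed. The tools were matplotlib 3.10.9, pandas 2.3.3 and numpy 2.4.6 under Python 3.11.15.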

Additional observations from a re-analysis of the deposited data

How the results depend on the processing

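No paired analysis was possible because each map pools its replicates, and without replicates or RT values the size of an RT difference, and whether it exceeds replicate error, cannot be given. The state of each member was read again at the midpoint and the end of the gene, over most bins of its body, over most bins within 150 kb of its start, and at every protein-coding transcript start. Of these 90 readings 88 gave the same state, and the 2 that differed were both of *Bach2* in CH12 cells, M at the gene end and M at 1 transcript start. Many of the 90 had little or no room to differ. The bodies of *Irf4* and *Xbp1* lie in 1 bin each, that of *Irf8* in 2 and that of *Sdc1* in 3. Every start in the B cell maps stood more than 150 kb inside its domain, which fixed the reading within 150 kb there. The domain of *Irf4* in the map named for MEFs measured 1240 kb in place of 1080 kb, both when domains were joined across up to 40 kb and when domains under 100 kb were removed. Over all annotated genes, E starts made up 44.8% in CH12 cells, 51.7% in primary B cells, 51.8% in the map named for MEFs and 42.5% in both B cell maps, and 76.8% kept 1 state. On autosomes only, the E shares were 51.8, 59.2, 61.1 and 49.5%. With 1 gene per pair of covering domains they were 19.7, 32.5, 36.5 and 14.7%, and 56.3% kept 1 state, since gene-rich E domains then count once. The median E share around the members was 100.0% in CH12 cells within 250 kb, and 62.8% in CH12 cells, 70.3% in primary B cells and 63.3% in the map named for MEFs within 1000 kb, against 95.1% within 500 kb in the last of these. That last change is under 1 SD over the members, which *Prdm1* at 0.0% widens. All told, 57 of 76 alternative values, that one included, moved by no more than 1 gene for a count of members and 1 bin for a domain length, stayed inside the Wilson interval for a share of genes, and moved by less than 1 SD over the members for a share of bins.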
